A study of Mus musculus with 9 samples.

Results

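Neuronal tubulins and microtubule proteins were followed in purified mouse retinal ganglion cells (RGCs), the neurons whose axons form the optic nerve. The group held 10 genes of the 23997 gene symbols in the files, chosen by name. They were 2 α-tubulin genes (Tuba1a and Tuba1b), 5 β-tubulin genes (Tubb2a, Tubb2b, Tubb3, Tubb4a and Tubb5), the microtubule-associated protein genes Map1b and Mapt, and the stathmin gene Stmn2. Each had 1 row per file and all 10 passed the filter on low values. On mm10 the files place Tubb3 at chr8:123411564-123422010, Mapt at chr11:104231436-104332089, Stmn2 at chr3:8509527-8561604 and Map1b at chr13:99421464-99516602. Tuba1a and Tuba1b are neighbours on chromosome 15, Tubb2a and Tubb2b on chromosome 13, and Tubb4a and Tubb5 both lie on chromosome 17.

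The cells came from wild-type C57BL/6J mice whose eyes were injected in the anterior chamber at 6 weeks of age and collected 2 weeks later, at 8 weeks. Control eyes received saline, while Mild IOP and Moderate IOP eyes received microbeads, which raise the intraocular pressure (IOP), and were placed in these 2 groups by their measured pressure, with the higher rise in Moderate IOP. RGCs of all groups were isolated in the presence of actinomycin D by immunopanning, in which dishes that bind other cells, amacrine cells among them, come before a last dish that holds cells with the surface protein Thy1.2. Each group's RNA went into 1 pool that was split into 3 libraries, which gave 9 libraries from 3 pools. The p-values below therefore measure the spread between technical replicates of a pool, and a difference between groups cannot be told apart from a difference between pools.

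Microtubules are polymers of α- and β-tubulin dimers that give axons their tracks for transport. Vertebrates make several versions (isotypes) of each tubulin from separate genes, and Tubb3, the antigen of the TUJ1 antibody used to stain RGCs in the study, is the isotype known for its restriction to neurons. Map1b and Mapt (tau) bind along the microtubule, while Stmn2 binds free tubulin dimers and is known from growing and regenerating axons. Tubulin mRNA in general is widely present in neurons and not particular to RGCs, although the paper lists TUJ1 with RBPMS as an RGC marker. Only purified RGCs were sequenced. Whether Tubb3, Stmn2, Map1b, Mapt or any single tubulin gene is particular to RGCs within the retina was therefore not tested.

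The coding ends of the near-identical genes Tubb2a and Tubb2b are shown because reads from them can fit more than one gene, and the end of Tubb3 because it sets this isotype apart. Coding sequences of Tuba1a and Tuba1b were 98.3% identical (23 differing of 1356 bases) and those of Tubb2a and Tubb2b 96.5% identical (47 of 1338), whereas all other pairs of the β-tubulin genes described were between 81.4% and 84.6% identical. The last 60 coding bases, which encode the variable tail of each protein and end with the stop codon, are given 5′ to 3′ from GENCODE M21 on mm10. Capitals mark bases that differ from the paired gene in an alignment of the coding sequences. For Tubb3 they mark those that differ from Tubb2a or have no partner in it.
Tubb2a (chr13:34074468-34074527, minus strand): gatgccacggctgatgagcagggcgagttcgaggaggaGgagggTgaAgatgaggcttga
Tubb2b (chr13:34127471-34127530, minus strand): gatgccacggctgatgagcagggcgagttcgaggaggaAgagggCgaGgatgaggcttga
Tubb3 (chr8:123421623-123421682, plus strand): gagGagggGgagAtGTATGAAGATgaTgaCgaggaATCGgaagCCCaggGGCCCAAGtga
Within these windows Tubb2a and Tubb2b differed at 3 bases, while 30 bases of Tubb3 differed from Tubb2a or had no partner there. The coding sequence of Tubb3 is longer, at 1353 bases against 1338, so the 2 counts are not of the same kind.

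Of all stretches of 100 bases in the transcript, 65.1% for Tuba1a and 69.5% for Tuba1b also occurred, base for base, in another annotated gene, most often Tuba1c. The share was 36.9% for Tubb2a and 27.7% for Tubb2b, mostly with each other, and 0% for Tubb3, Tubb4a, Tubb5, Map1b, Mapt and Stmn2. An annotated transcript named Gm49450 also shared 26.2% of the exonic bases of Tuba1a and 22.7% of those of Tuba1b on the same strand. The division of FPKM among Tuba1a, Tuba1b and Tuba1c, or between Tubb2a and Tubb2b, is uncertain for that reason. How reads that fit several genes were counted is not given in the sources used here.

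Promoters are shown for Tubb3 and Tubb5, the 2 genes called between Moderate and Mild IOP for which the RefSeq table held one, the others so called being Mapt and Stmn2. The 250 bases before the annotated transcript start are given 5′ to 3′ on the gene's strand, from RefSeq on GRCm38.p6, with capitals for matches to motifs on either strand. The TATA box was searched as TATAAA. For the CCAAT box the letters CCAAT were used. The GC box was searched as GGGCGG.
Tubb3 (chr8:123411303-123411552, plus strand): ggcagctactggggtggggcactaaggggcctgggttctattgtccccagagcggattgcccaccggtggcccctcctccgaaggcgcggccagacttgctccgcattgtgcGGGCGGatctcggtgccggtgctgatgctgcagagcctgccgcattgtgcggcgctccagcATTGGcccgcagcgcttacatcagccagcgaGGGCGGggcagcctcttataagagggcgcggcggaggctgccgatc
Tubb5 (chr17:35838302-35838551, minus strand): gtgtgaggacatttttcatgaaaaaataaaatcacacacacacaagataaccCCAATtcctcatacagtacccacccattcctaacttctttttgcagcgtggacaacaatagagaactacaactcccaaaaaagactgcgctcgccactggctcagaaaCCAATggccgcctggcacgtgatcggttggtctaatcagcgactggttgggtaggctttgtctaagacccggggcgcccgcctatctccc
The Tubb3 window held 1 CCAAT and 2 GGGCGG matches and the Tubb5 window 2 CCAAT matches, none overlapping another, and neither held TATAAA. Of 32851 promoter windows of this length, 33.8% held CCAAT, 32.7% GGGCGG and 12.4% TATAAA. A match describes the letters of the window and is not a bound site.

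All 10 genes were abundant, and their levels covered a wide range. Values are scaled FPKM, the fragments per kilobase of transcript corrected for library size, after scaling the libraries to each other. Levels of different genes can be set side by side on this scale, except as limited by shared stretches for Tuba1a, Tuba1b, Tubb2a and Tubb2b. Tuba1a had the highest level, at 2613 ± 261, 2366 ± 182 and 2770 ± 117 in the Control, Mild IOP and Moderate IOP libraries (mean ± SD, n = 3 libraries here and below), and ranked 11 by mean among the genes tested. Tuba1b followed at 1371 ± 123, 1139 ± 113 and 1444 ± 104, and Tubb2a at 1078 ± 82.3, 946 ± 75.3 and 1104 ± 99.4. Tubb4a, a β-tubulin of the nervous system, stood at 799 ± 51.7, 697 ± 25.1 and 848 ± 85.9 in the same order of groups. These 4 genes and Tubb3 kept the same order in all 3 groups, and their ranges were apart except those of Tuba1b (1015 to 1237) and Tubb2a (870 to 1020) in Mild IOP.

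The remaining genes were lower. Tubb5 (200 ± 20.6 in Control) and Tubb2b (194 ± 26.6) overlapped in every group. Stmn2 (145 ± 17.1) lay below Tubb2b and apart from it in Control, overlapped it in Mild IOP, and in Moderate IOP had a higher mean than Tubb2b (225 ± 21.6 against 211 ± 32.4) with overlapping ranges. Map1b (66.9 ± 4.4) and Mapt (66.6 ± 2.3) overlapped in every group and exchanged places in Moderate IOP. Fragment numbers estimated from the deposited confidence limits lay between 1158 for Mapt and 36707 for Tuba1a per library.

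**Figure D1:**
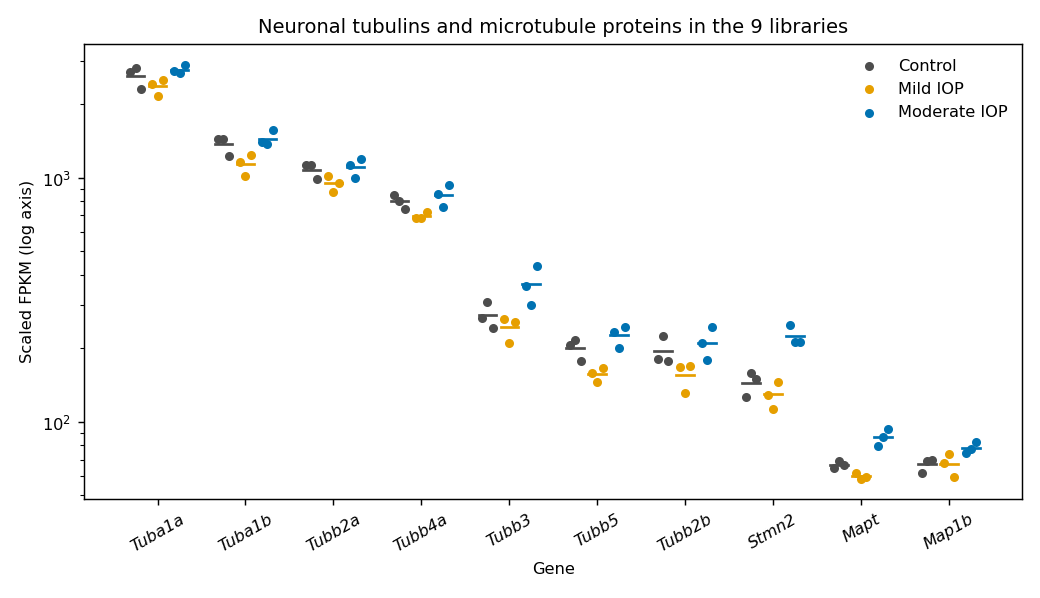
Scaled FPKM of each of the 10 genes (log axis) in each library, as points, with the group mean as a bar, for Control, Mild IOP and Moderate IOP (3 libraries each). The Stmn2 points of Moderate IOP (212 to 250) lie above all 6 other libraries (113 to 159), whereas the Tuba1a points of Control (2314 to 2802) overlap those of Mild IOP (2161 to 2509) and Moderate IOP (2679 to 2902).

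Mild IOP was compared with Control to ask what a small rise in pressure does to these transcripts. No gene of the 10 passed the test in limma over all 13043 genes tested (false discovery rate, FDR, below 0.1 after Benjamini-Hochberg adjustment), where 0.399% of all genes passed. At an unadjusted p below 0.05 there were 2 of them, against 10.2% of all genes. The Tubb5 values were 207, 217 and 177 in the Control libraries and 159, 145 and 166 in the Mild IOP libraries. The groups did not overlap, and the log2 fold-change of −0.35 (standard error 0.12) had an FDR of 0.33 (limma). Tuba1b differed by −0.27 on the log2 scale (standard error 0.12, FDR = 0.47, limma), with 1 Mild IOP library (1237) above the lowest Control library (1228).

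All 10 log2 fold-changes of Mild IOP were below 0, as were 49% of those of all genes, with a median of −0.18 for the 10 genes and 0.006 for all genes. The estimates reached from −0.35 for Tubb5 to −0.0024 for Map1b. For Tubb3 the 95% confidence interval was −0.5 to 0.18 and for Stmn2 it was −0.46 to 0.14, so falls of these sizes were not resolved. The 3 Mild IOP libraries lay below all Control libraries for 4 genes (Tubb2b, Tubb4a, Tubb5 and Mapt), against 9.13% of all genes. Mild IOP replicate 2 was the lowest of the 9 libraries for 9 of the 10 genes, Map1b being the exception. In that library 1 gene held 20.5% of the summed FPKM, against 9.1% in Moderate IOP replicate 3 and 1.9% to 3.6% in the remaining libraries, and the part of this in the values was not tested. The 4 genes with a longest transcript of 1000 to 2000 bases (Tubb3, Tuba1a, Tuba1b and Tubb2a) belong to a length class whose median over all genes was −0.16 in this comparison.

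Moderate IOP was compared with Control to ask the same of a larger rise. Stmn2, whose product binds free tubulin, was the only one of the 10 genes that rose (FDR below 0.1), against 0.951% of all genes called higher and 1.84% called in either direction. Its values were 126, 159 and 149 in the Control libraries, 129, 113 and 146 in the Mild IOP libraries and 250, 212 and 213 in the Moderate IOP libraries. The Moderate IOP libraries were higher than all others, while Control and Mild IOP overlapped. Against Control it differed by 0.64 on the log2 scale (standard error 0.14, FDR = 0.064, limma), a 1.55-fold level, which was also past the fold-change limit of 1.5 that the study used. Both limits together were met by 0.905% of all genes in this direction. This call was near the threshold: the FDR was between 0.11 and 0.21 without Control replicate 1 or 2, Mild IOP replicate 1 or any 1 Moderate IOP replicate, with log2 fold-changes of 0.54 to 0.71, and 0.13 with the replicate number as a block.

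Mapt, which encodes tau, measured 64.5, 69 and 66.2 in the Control libraries, 61.4, 58.5 and 59.3 in those of Mild IOP, and 79.4, 86.5 and 93.4 in those of Moderate IOP. Moderate IOP was above all other libraries, with a log2 fold-change against Control of 0.37 (standard error 0.11) that did not pass (FDR = 0.17, limma). Tubb3 measured 267, 308 and 243 in the Control libraries, 264, 210 and 257 in those of Mild IOP, and 360, 302 and 433 in those of Moderate IOP. The lowest Moderate IOP library lay below the highest Control library, and the log2 fold-change of 0.41 (standard error 0.15) did not pass either (FDR = 0.24, limma). Map1b, at 61.8, 68.9 and 69.9 in Control and 74.7, 77.4 and 82.8 in Moderate IOP, did not overlap, and its difference was 0.22 on the log2 scale (standard error 0.12, FDR = 0.42, limma).

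The abundant tubulins were close to Control in Moderate IOP. Log2 fold-changes were 0.09 for Tuba1a, 0.08 for Tuba1b, 0.03 for Tubb2a and 0.08 for Tubb4a, none of which passed. Over these genes the 95% confidence intervals reached from −0.22 to 0.34, so changes within that range were not resolved. All 10 estimates were above 0, as were 50.5% of those of all genes, with medians of 0.14 for the 10 genes and 0.004 for all genes. For 3 genes (Map1b, Mapt and Stmn2) all Moderate IOP libraries lay above all Control libraries, against 9.95% of all genes.

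The groups with raised pressure were also compared with each other. Between Moderate and Mild IOP, 4 of the 10 genes were higher in Moderate IOP (FDR below 0.1) and none was lower, against 7.03% of all genes higher and 3.12% lower (10.2% in either direction). Stmn2 had the largest difference, 0.8 on the log2 scale (standard error 0.14, FDR = 0.01, limma), or 1.74-fold. Mapt differed by 0.52 (standard error 0.11, FDR = 0.024, limma), Tubb5 by 0.52 (standard error 0.12, FDR = 0.034, limma) and Tubb3 by 0.57 (standard error 0.15, FDR = 0.055, limma). Stmn2 alone of them was past a fold-change of 1.5, which 5.8% of all genes passed together with the FDR in this direction. This comparison shares its libraries with the other 2, so the 3 are not independent.

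The Tubb5 values were 233, 200 and 244 in Moderate IOP, which overlapped the Control libraries and lay above the 3 Mild IOP libraries given before. The 6 genes that did not pass had log2 fold-changes of 0.43 (Tubb2b), 0.34 (Tuba1b), 0.28 (Tubb4a), 0.23 (Tuba1a), 0.23 (Map1b) and 0.22 (Tubb2a), with an FDR of 0.12 or more. All 10 estimates were above 0, as were 48.4% of those of all genes. For 9 of the 10 genes all Moderate IOP libraries were above all Mild IOP libraries, against 14.5% of all genes, and the median log2 fold-change was 0.39 against −0.016 for all genes. The tubulin genes varied together over the libraries, so counts over the 10 genes, in each comparison, are not counts of separate observations. The shares beside them are over tested genes of all levels. Stmn2 and Mapt passed whichever library was left out. Tubb5 did not pass without Mild IOP replicate 2 (0.47, FDR = 0.11, limma), and Tubb3 did not pass without Mild IOP replicate 2 (0.47, FDR = 0.18), Moderate IOP replicate 1 (0.58, FDR = 0.12) or Moderate IOP replicate 3 (0.45, FDR = 0.15). With all libraries, Tubb3 did not pass with no filter on low values (FDR = 0.11) or with no variance trend (FDR = 0.14), and Tubb5 with no variance trend (FDR = 0.11). Moderate IOP replicate 3 was the highest of the 9 libraries for 9 of the 10 genes.

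**Figure D2:**
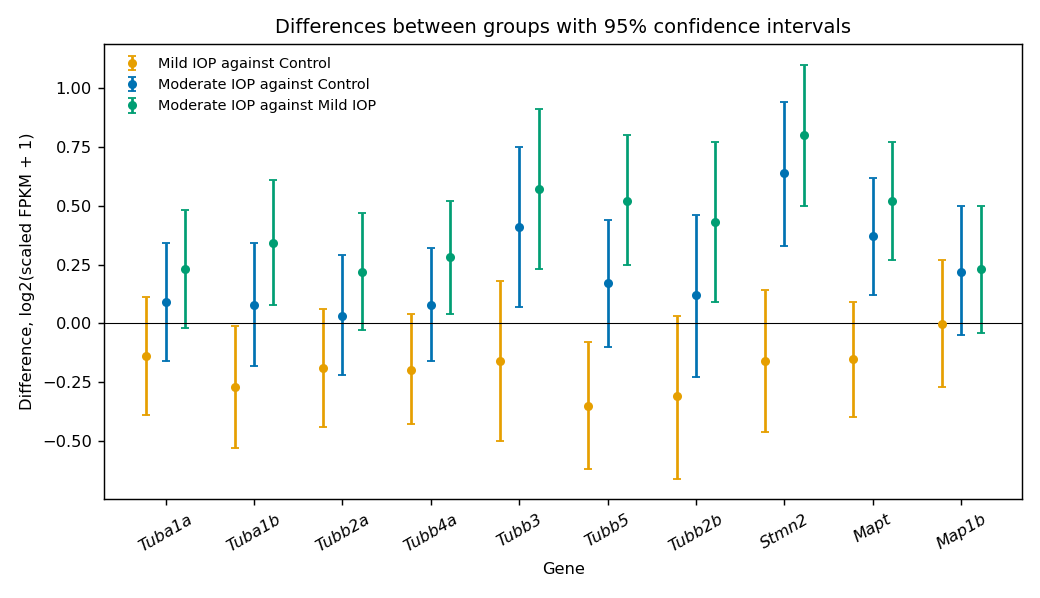
Difference in log2(scaled FPKM + 1) for each of the 10 genes in each of the 3 comparisons, with points for estimates and bars for 95% confidence intervals from the limma fit. All 10 points lie below 0 for Mild IOP against Control and above 0 for the comparisons of Moderate IOP, and Stmn2 is the highest in both of these (0.64 and 0.8).

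RGC markers also differed between the groups, and most had higher estimates in Moderate IOP. The summed scaled FPKM of the 13 RGC markers listed was 1573 to 1663 in the Control libraries, 1166 to 1445 in those of Mild IOP and 2450 to 2597 in those of Moderate IOP, with none at 0 in every library, and 0, 3 and 7 of the 13 passed in the 3 comparisons, all higher (Mild IOP against Control, Moderate IOP against Control and Moderate against Mild IOP). Sncg and Nefl made up most of that sum (means of 911 and 343 in Control). The median log2 fold-changes of the 13 were −0.19, 0.5 and 0.56, whereas those of Tuba1a, Tuba1b, Tubb2a and Tubb4a in Moderate IOP against Control were 0.03 to 0.09. Rbpms2 (−0.07), Pou4f2 (−0.1) and Pou4f3 (−0.15) had estimates below 0 in that comparison (standard errors of 0.18, 0.19 and 0.36) and did not pass. Rbpms (1.07), Pou4f1 (0.7) and Thy1 (0.7) had estimates above 0 there that did not pass, and they passed against Mild IOP (1.26, 0.92 and 1.05). Between Moderate and Mild IOP every marker had an estimate above 0, from 0.07 for Pou4f2 to 1.26 for Rbpms. Of the genes called in both Moderate IOP comparisons, Sncg (γ-synuclein) rose by 0.61 and 1.13, Nefl (neurofilament light chain) by 0.65 and 0.52, and Nrn1 (neuritin) by 0.74 and 0.68. The 10 amacrine markers summed to 1395 to 1450, 1451 to 1636 and 997 to 1168, with 2 and 4 lower in the Moderate IOP comparisons. The 10 rod and cone markers summed to 433 to 517, 285 to 327 and 290 to 324. The part of these shifts in the tubulin and Stmn2 values was not tested directly, and in bulk RNA fewer or more cells of a type and less or more RNA per cell cannot be told apart.

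Markers of other cells had lower sums or other patterns. Müller glia markers summed to 516 to 542, 513 to 587 and 477 to 501 over the 3 groups, bipolar markers to 61.5 to 79.7, 56.6 to 74.4 and 92.4 to 103, and microglia markers to 15.7 to 26.2, 17.4 to 31.8 and 27.1 to 35.2. Astrocyte markers summed to 1.05 to 4.25, 0.957 to 1.72 and 3.66 to 6.8. The sums were 0 to 3.48, 2.87 to 8.19 and 3.41 to 4.73 for endothelial and pericyte markers. For oligodendrocyte markers they were 1.93 to 5.61, 4.31 to 5.98 and 3.02 to 4.73. At 0 throughout were 2 of 6 endothelial and pericyte genes (Cldn5 and Cdh5) and 2 of 5 oligodendrocyte genes (Mog and Olig2), while the others were above 0 in at least 1 library. Lens markers summed to 290 to 345 in Control, and to at most 2.2 in Mild IOP and 5 in Moderate IOP. Between 14182 and 14914 genes were above 0 per library, and the depth estimated from confidence limits was 4370000 to 7810000 fragments.

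Scaling the libraries on RGC markers gave a different picture. When they were brought to the same median RGC marker, no call remained among the 10 genes in any comparison, and the Stmn2 difference was 0.32 against Control (FDR = 0.37, limma) and 0.3 against Mild IOP (FDR = 0.28). The medians of the 10 genes were then 0.01, −0.17 and −0.11 (Mild IOP against Control, Moderate IOP against Control, Moderate against Mild IOP), beside all-gene medians of 0.16, −0.26 and −0.43. With median-of-ratios factors over the RGC markers, a setting added after the data were seen, 6 genes were lower in Moderate IOP than in Control (Tuba1a, Tuba1b, Tubb2a, Tubb2b, Tubb4a and Tubb5), beside 35.4% of all genes called lower, with −0.42 for Tuba1a (FDR = 0.015, limma) and −0.48 for Tubb2a (FDR = 0.01), and all-gene medians shifted to 0.08, −0.42 and −0.5. Against that shift Stmn2 stood at 0.13 (FDR = 0.49) and Tubb3 at −0.1 (FDR = 0.63).

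The numbers of all genes called changed with the scaling. Between Moderate IOP and Control, 124 genes were higher and 116 lower with factors over all genes, 107 and 148 without scaling, 52 and 670 on the median RGC marker, and 113 and 4616 with median-of-ratios factors over RGC markers. Between Moderate and Mild IOP the numbers were 917 and 407, 731 and 662, 222 and 3808, and 246 and 5723 in the same order. In Mild IOP against Control at most 2 genes were higher under any of these scalings, and 51, 35, 16 and 54 were lower. Directions given for the tubulin genes are therefore relative to the genes chosen for scaling.

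**Figure D3:**
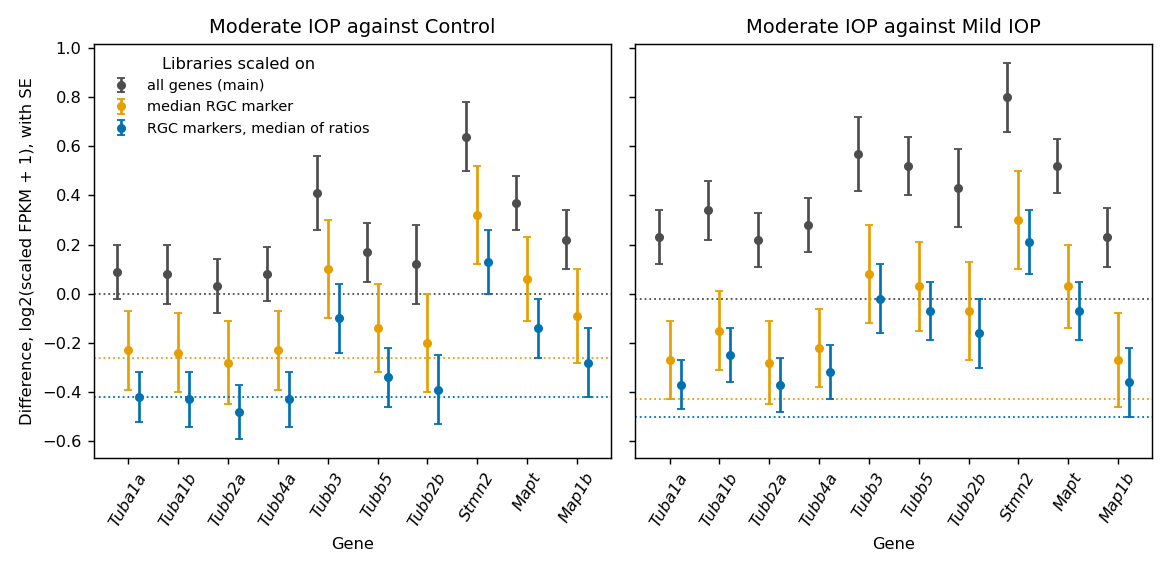
Difference in log2(scaled FPKM + 1) with its standard error for the 10 genes in Moderate IOP against Control (left) and Mild IOP (right), with libraries scaled on all genes, on the median RGC marker or by median of ratios over RGC markers. Dotted lines are the medians of all genes under each scaling, and the points of Tuba1a move from 0.09 to −0.42 against Control while those of Stmn2 move from 0.64 to 0.13.

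Shares of each isotype within its family do not depend on the scaling of the libraries. Of the summed FPKM of 8 α-tubulin genes, Tuba1a took 51.7% ± 0.56, 53.9% ± 0.48 and 52.1% ± 1.2 in the Control, Mild IOP and Moderate IOP libraries. Tuba1b took 27.1% ± 0.46, 25.9% ± 0.41 and 27.1% ± 0.25, and Tuba1c, Tuba4a and Tuba8 made up nearly all of the rest. The Tuba1a share of the Mild IOP libraries (53.4% to 54.4%) lay above that of all other libraries (50.7% to 52.8%), and the exact two-sided permutation test gave p = 0.1 against either group, the smallest that 3 against 3 libraries allow.

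Of the summed FPKM of 8 β-tubulin genes, Tubb2a took 36.7% ± 0.26, 37.5% ± 1.1 and 34.5% ± 0.85 in Control, Mild IOP and Moderate IOP. The share of Tubb3 was 8.78%, 10.1% and 9% in the Control libraries, 10%, 8.98% and 9.92% in Mild IOP, and 11.4%, 10.4% and 12.3% in Moderate IOP. Every Moderate IOP library had a higher Tubb3 share and a lower Tubb2a share than every library of the other groups (exact two-sided permutation p = 0.1 for each, the smallest possible). Tubb4a took 27.2% ± 0.97, 27.7% ± 1.6 and 26.5% ± 0.44, Tubb4b, which is not among the 10 genes, 13.2% ± 0.56, 12.7% ± 0.12 and 13.9% ± 2.1, and Tubb2b 6.61% ± 0.71, 6.17% ± 0.5 and 6.57% ± 0.39, all with overlapping groups. Tubb5 took 6.82% ± 0.25, 6.21% ± 0.18 and 7.06% ± 0.27, with Mild IOP below the other libraries. The ratio of summed α- to summed β-tubulin FPKM was 1.72 ± 0.044, 1.74 ± 0.06 and 1.67 ± 0.063, and the groups overlapped.

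**Figure D4:**
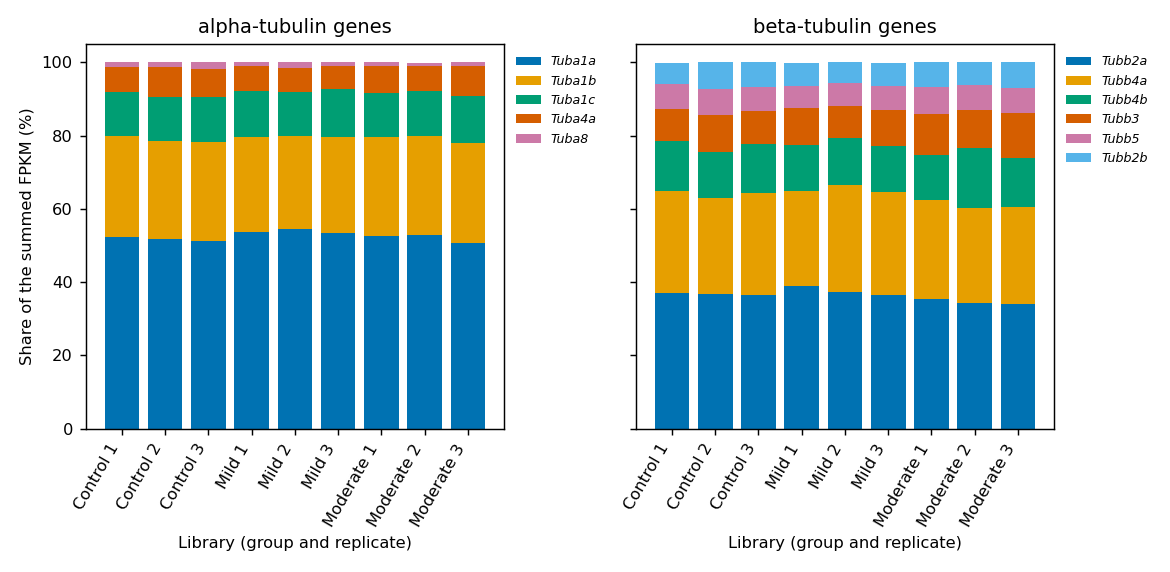
Percent of the summed α-tubulin FPKM (left) or β-tubulin FPKM (right) taken by each gene in each of the 9 libraries, as stacked bars from 0. The Tubb3 segment is 8.78% to 10.1% in Control and Mild IOP libraries and 10.4% to 12.3% in Moderate IOP libraries, and the Tuba1a segment is 50.7% to 54.4% throughout.

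Tubb5 was run in the study beside Hprt and Ppia as a reference gene for quantitative PCR. The paper reports that Hprt was the most stable of them and normalized its genes of interest to Hprt. Over the 9 libraries its coefficient of variation was 17.7%, between those of Hprt (13.7%) and Ppia (24.1%), and its highest library was 1.69 times its lowest. The median over the 1991 genes with a mean of at least 50 was 17%. Hprt, an enzyme of purine salvage, passed in no comparison, whereas Ppia (cyclophilin A) was higher in Moderate than in Mild IOP by 0.79 (standard error 0.15, FDR = 0.017, limma), as Tubb5 was. Among the 10 genes the coefficient ranged from 9.47% for Tuba1a to 28.5% for Stmn2, with 23.1% for Tubb3.

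The tubulin genes varied together over the libraries. Over the 9 libraries, which share pools and scaling factors, Pearson's r of log2 values between pairs of the 7 tubulin genes was 0.84 to 0.96, with a median of 0.9 over 21 pairs. It was 0.62 to 0.87 for Mapt with the tubulins, 0.54 to 0.84 for Stmn2 and 0.21 to 0.56 for Map1b. The highest r was that of Tuba1a and Tuba1b, which share stretches of 100 bases. Group means were not removed, so these values also hold the differences between groups, and no r over all pairs of genes is given beside them. The genes outside the group whose pattern was most like that of Tubb3 were Dynlt1b (r = 0.986), a light chain of the dynein motor, Gm6682 (r = 0.964), which shares stretches of 100 bases with Tuba1a and Tuba1b, and Wbp11 (r = 0.962), a splicing factor. Those most like Stmn2 were Cda (r = 0.975), cytidine deaminase, Sdhc (r = 0.973), a subunit of succinate dehydrogenase, and B230118H07Rik (r = 0.972). They were picked from 13043 genes for likeness, so the values are descriptions.

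Other microtubule genes were read from lists of tubulins, stathmins, binding proteins, folding factors and enzymes, which held 137 genes, of which 135 were in the files and 123 were tested. None passed between Mild IOP and Control, where 17 had an unadjusted p below 0.05, beside 10.2% of all genes. Between Moderate IOP and Control 2 passed, a share near the 1.84% of all genes, so they are given for their values and not as a feature of the list. Map1a, a relative of Map1b, rose from 6.36, 7.08 and 9.52 in Control to 14, 14.4 and 14.4 in Moderate IOP (log2 fold-change 0.83, standard error 0.18, FDR = 0.068, limma). Ttll3, a ligase that adds glycine to tubulin, fell from 1.45 to 1.77 in Control to 0.326 or less in Moderate IOP, a low level (log2 fold-change −1.17, standard error 0.28, FDR = 0.094, limma). The Map1a call was lost in 7 of the 9 fits that left out 1 library (0.73 to 0.85, FDR of 0.1 to 0.21), all but those without Control replicate 3 or Mild IOP replicate 2, and the Ttll3 call in all 9 (−1.29 to −1.09, FDR of 0.12 to 0.23). With the replicate number as a block the FDR was 0.12 and 0.16.

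Between Moderate and Mild IOP, 18 of the 123 were higher and 5 lower, beside the 7.03% and 3.12% of all genes, and the median over the 123 was 0. Of these 23 calls, 10 passed whichever library was left out (Tppp, Tppp3, Map1lc3a, Stmn1, Stmn3, Tbca, Tbcb, Tbce, Pfdn1 and Pfdn4). The number lost was 6, 5 and 1 without Control replicate 1, 2 or 3, 10, 11 and 5 without Mild IOP replicate 1, 2 or 3, and 9, 11 and 7 without Moderate IOP replicate 1, 2 or 3. Scaling on the median RGC marker ended 16 of the 23 calls, and median-of-ratios factors over RGC markers ended 14. Of the 10 genes just named, only Tppp, Tbce and Pfdn4 passed under both of these scalings. Among 9 other tubulins tested, Tubb4b (0.47, FDR = 0.043) and Tuba4a (0.47, FDR = 0.086) were higher and the remaining 7 did not pass. The Tuba4a call was lost in 7 of the 9 fits that left out 1 library (0.34 to 0.56), and also with no scaling, upper-quartile scaling, no filter, no variance trend or the replicate block (FDR of 0.1 to 0.19). The Tubb4b call was lost in 3 of the 9 and with no variance trend. Both differences were reversed to values of −0.13 to −0.02 under either scaling on RGC markers. The stathmin relatives of Stmn2 included Stmn1, higher by 0.68 (standard error 0.12, FDR = 0.012, limma) from 1346 ± 202 to 2135 ± 59.9, and Stmn3, higher by 0.56 (FDR = 0.039), whereas Stmn4 had a log2 fold-change of −0.05 (FDR = 0.9). The Stmn1 and Stmn3 levels were above that of Stmn2 in every group.

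Factors that fold tubulin differed in both directions. Of the 8 cofactors, Tbca, which holds β-tubulin, was higher in Moderate IOP by 1.06 (standard error 0.19, FDR = 0.012, limma), Tbcb, which holds α-tubulin, by 0.91 (FDR = 0.0092), and the GTPase gene Arl2 by 0.72 (FDR = 0.038). Tbce and Tbcd, which act at the later step where the dimer forms, were lower (log2 fold-changes of −1.07, FDR = 0.019, and −0.63, FDR = 0.088). The Tbcd call was lost in 8 of the 9 fits that left out 1 library (−0.71 to −0.56, all but that without Control replicate 3), with no filter and with the replicate block. The Tbce values were 33.6, 22.3 and 37.5 in Mild IOP and 11.9, 17.1 and 13.5 in Moderate IOP, and the groups did not overlap. Of 13 subunits of prefoldin and the chaperonin, which receive newly made tubulin, 4 prefoldin subunits were higher, led by Pfdn4 (1.23, FDR = 0.018), Pfdn5 (0.95, FDR = 0.053) and Pfdn1 (0.89, FDR = 0.0081), and none was lower. Pfdn5 measured 135, 71.5 and 150 in Mild IOP and 271, 206 and 190 in Moderate IOP, and without Mild IOP replicate 2 its difference was 0.62 and did not pass (FDR = 0.12). It also did not pass without Moderate IOP replicate 1 or 2, with no filter, or with no variance trend.

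Structural microtubule-associated proteins were split as well, with 5 of 18 higher and 2 lower. Tppp3 (0.77, FDR = 0.023), Map7d2 (0.77, FDR = 0.084) and Map1a (0.63, FDR = 0.073) were higher. The size of the Map7d2 difference depended on 1 library, as it measured 72.5, 40.6 and 35.4 in Moderate IOP, and its difference was 0.46 (FDR = 0.17) without Moderate IOP replicate 1. The calls of Map7d2 and Map1a were each lost in 6 of the 9 fits that left out 1 library, without scaling and with the replicate block (FDR = 0.12 and 0.1). Tppp, the tubulin polymerization promoting protein (−0.69, standard error 0.13, FDR = 0.016, limma), and Dclk2, a doublecortin-like kinase (−0.51, FDR = 0.096), were lower, the latter call being lost in 8 of the 9 fits that left out 1 library. Of 17 nucleation genes Haus1 (1.47, FDR = 0.039) and Mzt2 (0.94, FDR = 0.055) were higher, and of 18 enzymes that modify tubulin Ttll3 was lower (−0.94, FDR = 0.081). Leaving out 1 library ended the Haus1 call in 3, the Mzt2 call in 4 and the Ttll3 call in 8 of the 9 fits. None of 18 proteins of the microtubule ends, 4 severing enzymes, or 15 kinases and phosphatases of tau and Map1b passed in any comparison.

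Transcript length moved with the comparisons. Genes whose longest annotated transcript was under 1000 bases had a median log2 fold-change of 0.68 between Moderate and Mild IOP (672 genes), those of 1000 to 2000 bases 0.27, those of 2000 to 4000 bases −0.04 and those of 4000 bases or more −0.14. In the same order of classes the medians were −0.46, −0.16, 0.01 and 0.08 in Mild IOP against Control, and 0.24, 0.12, −0.02 and −0.05 in Moderate IOP against Control. Of the 18 other microtubule genes called higher, 12 had a longest transcript under 2000 bases, such as Tbca at 633 bases and Pfdn4 at 1041, and of the 5 called lower 1 did. Among the 10 genes Tubb3, Tuba1a, Tuba1b and Tubb2a fell in the class of 1000 to 2000 bases, and Map1b and Mapt in the longest. The called genes Stmn2 (3413 bases), Tubb5 (2649 bases) and Mapt (5253 bases) lay in classes whose medians between Moderate and Mild IOP were below 0. The class of Tubb3 had a median above 0. Classes were set by the longest annotated transcript, which need not be the one expressed, and the part of length in any of these values was not tested.

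**Figure D5:**
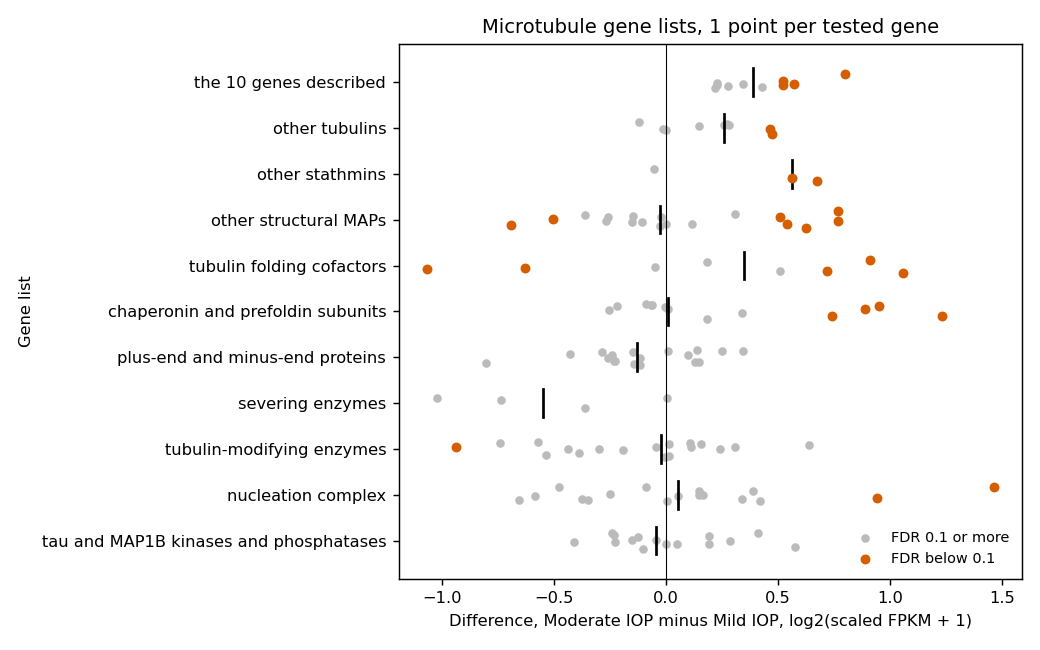
Difference in log2(scaled FPKM + 1) between Moderate and Mild IOP for the 10 genes and for each list of other microtubule genes, with 1 point per tested gene, coloured where the FDR was below 0.1, and a bar at each list's median. The 10 genes all lie to the right of 0 with a median of 0.39, while the folding cofactors hold called genes on both sides (−1.07 to 1.06).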

How the data were processed

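The authors deposited 1 table of FPKM per library with confidence limits. Their methods name bowtie2, Cufflinks and Cuffdiff with the mm10 mouse genome, and the submitters' processing notes list FastQC, Trimmomatic, TopHat2, Cufflinks and Cuffdiff, without versions. Libraries were made with an oligo-dT SMART-seq v4 kit, so reverse transcription starts at the poly(A) tail, the far end of long or broken transcripts can be under-read, and strand is not kept. FPKM were summed per symbol, scaled by median-of-ratios factors over the 9 libraries and tested as log2(scaled FPKM + 1) with limma 3.58.1 (variance trend, R 4.3.3) over genes with a mean of at least 0.5, leaving out 2 genes whose estimate failed in some library. Adding 1 shrinks the fold-changes of low genes. Calls had a Benjamini-Hochberg FDR below 0.1. On simulated data for Moderate IOP against Control (12856 genes), 75 of 100 genes changed by 1 on the log2 scale were called, and 100 of 100 changed by 2. In the same fit 20 unchanged genes were called. The changed genes were drawn only from those above a limit on mean level, and noise was independent between genes and libraries. Low genes and shifts shared by the genes of a library were therefore not covered. Changes below 1 on the log2 scale, as all those of the 10 genes were, were not simulated. Depth was estimated from the confidence limits, since the files hold no counts, and is approximate. The members and gene lists were chosen with earlier results of these data known. All 10 members were named, with the 3 genes most correlated with Tubb3 and with Stmn2, and up to 3 called genes per list and direction with the largest change. Coding ends of the α-tubulin genes are not reported here. Sequences came from GENCODE M21 and RefSeq (GRCm38.p6), and 95.3% of the tested genes had a transcript length.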

Additional observations from a re-analysis of the deposited data

How the results depend on the processing

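Shares of each tubulin within its family are formed inside each library. Scaling, the filter, the variance trend and the replicate block therefore cannot move them and do not test them. Leaving out a library must move a group mean by less than the spread of its libraries, so that is no test of them either. The mean Tubb3 share was then 8.89% to 9.53% in Control, 9.45% to 9.97% in Mild IOP and 10.9% to 11.8% in Moderate IOP. Scaling on RGC markers changed calls among the 10 genes in both Moderate IOP comparisons. The median-of-ratios factors over RGC markers were 0.9018 to 0.9349 in Control, 0.8382 to 0.9303 in Mild IOP and 1.235 to 1.315 in Moderate IOP. A factor divides every gene of its library alike, so the values below hold a shift common to all genes and are not separate results for each gene. Why the markers differed between the groups was not tested. On the median RGC marker, calls among the 10 genes were 0 in every comparison, and other microtubule genes called were 11 (Moderate IOP against Control) and 48 (Moderate against Mild IOP), beside 5.54% and 30.9% of all genes. With median-of-ratios factors over RGC markers, added after the data were seen, 6 and 5 of the 10 genes were called lower in these comparisons, beside 35.4% and 43.9% of all genes called lower, and 55 and 74 other genes were called, beside 36.3% and 45.8% of all genes. Of the 23 other genes called between Moderate and Mild IOP before, 16 were lost on the median RGC marker and 14 with these factors. Signs then turned as follows, with the median RGC marker first and the median-of-ratios factors second where both turned. In Mild IOP against Control the values were 0.02 for Tubb3, 0.04 for Tuba1a, 0.03 for Mapt and 0.02 for Stmn2 (median marker), and 0.18 and 0.08 for Map1b, which was also 0.05 without scaling and 0.01 with upper-quartile scaling. In Moderate IOP against Control they were −0.23 and −0.42 for Tuba1a, −0.24 and −0.43 for Tuba1b, −0.28 and −0.48 for Tubb2a (−0.0043 without scaling), −0.2 and −0.39 for Tubb2b, −0.23 and −0.43 for Tubb4a, −0.14 and −0.34 for Tubb5, −0.09 and −0.28 for Map1b, and −0.1 for Tubb3 and −0.14 for Mapt (second only). In Moderate against Mild IOP they were −0.27 and −0.37 for Tuba1a, −0.15 and −0.25 for Tuba1b, −0.28 and −0.37 for Tubb2a, −0.07 and −0.16 for Tubb2b, −0.22 and −0.32 for Tubb4a, −0.27 and −0.36 for Map1b, −0.02 and −0.12 for Tuba4a, −0.03 and −0.13 for Tubb4b, and −0.02 for Tubb3, −0.07 for Tubb5, −0.07 for Mapt and −0.03 for Stmn3 (second only).

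The Stmn2 call against Control was also lost, leaving 0 of the 10 genes, with no filter on low values and with no variance trend. Between Moderate and Mild IOP 2 of the 10 and 14 other genes were called with no variance trend, and 15 other genes with the spread taken from the compared groups alone. In Mild IOP 1 other gene was called with a mean of at least 5 or with the highest locus per symbol. Leaving out 1 library at a time gave 0 to 1 other genes in Mild IOP, 0 to 1 of the 10 and 0 to 5 others in Moderate IOP, and 2 to 5 of the 10 and 12 to 22 others between Moderate and Mild IOP. The lowest of the last were 2 and 12 without Mild IOP replicate 2, with 12 others also without Moderate IOP replicate 2 and 13 without Mild IOP replicate 1. Signs turned for Map1b in Mild IOP (0.02, 0.03 and 0.07 without Control replicate 2, Control replicate 3 or Mild IOP replicate 3, in a range of −0.08 to 0.07), and in Moderate IOP for Tuba1b (−0.00071) and Tubb2a (−0.03) without Control replicate 3 and Tubb2a (−0.02) without Moderate IOP replicate 3, with highest values of 0.12 for Tuba1b and 0.1 for Tubb2a. The coefficient of variation without scaling was 12.3% for Hprt and 15.5% for Tubb5, and without 1 library it was 11.5% to 14.7% for Hprt, 17.6% to 25.8% for Ppia and 15.5% to 19% for Tubb5.

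With the replicate number as a block, 0 of the 10 and 0 other genes were called in Moderate IOP against Control, and between Moderate and Mild IOP it ended no call among the 10 genes but 7 of the 23 calls among other genes (Tuba4a, Map1a, Map7d1, Map7d2, Dclk2, Tbcd and Ttll3). Deviations from the group mean had correlations of −0.005 to 0.044 between same-numbered libraries of different groups. Between differently numbered ones the correlations were −0.051 to 0.042. Such values over all genes cannot show whether same-numbered libraries shared a step of preparation. Over all genes the 52 calls of Mild IOP became 25 with the block, 24 with no filter, 85 with a mean of at least 5, 18 on the median RGC marker, 15 with no variance trend and 11 with the spread of the compared groups. The 240 calls of Moderate IOP became 135 with the block, 722 and 4729 under the RGC scalings, 144 with no variance trend and 134 with the spread of the compared groups. The 1324 calls between Moderate and Mild IOP became 4030 and 5969 under the RGC scalings and 839 with no variance trend. Leaving out 1 library gave 15 to 183 calls in Mild IOP, with 183 without Mild IOP replicate 3, 15 without Mild IOP replicate 2 and 18 to 23 without Control replicate 1, 2 or 3, Mild IOP replicate 1 or Moderate IOP replicate 2. In Moderate IOP it gave 61 to 287, with 61 and 86 without Control replicate 1 or 2, 141 without Mild IOP replicate 1, and 146 and 110 without Moderate IOP replicate 1 or 2. Between Moderate and Mild IOP it gave 519 to 1399, with 519 without Mild IOP replicate 2, 747 without Mild IOP replicate 1 and 778 without Moderate IOP replicate 2. The shares of all genes given beside the counts change with them. With 1 pool per group no test here reaches the spread between animals, and the files give no read counts from which counting error could be set apart.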
